A study of Mus musculus with 2 samples.

Results

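Fos, Fosb, Jun, Junb, Jund, Egr1, Ier2, Atf3, Dusp1 and Nr4a1 are immediate early genes, and their transcripts were followed here across the cell types of the mouse brain at postnatal day 10. The members were taken by gene symbol from the 32285 features of the count tables, and each of the 10 symbols matched 1 feature. Both libraries form 1 group, brain cells of mice whose strain is labelled C57BL/J, and the labels name no genetic change, no agent and no control, so the comparisons set cell classes against each other within the libraries. The labels mention 6 mice without assigning any to library 1 or library 2, and they do not say that the libraries came from different animals, so the p-values measure the spread between these 2 libraries alone, which may be technical. Neither a stimulated brain nor tissue fixed before dissociation is among the labelled samples, so transcription in the living brain and transcription during the making of the cell suspension cannot be told apart.

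Immediate early genes are transcribed within minutes of a stimulus because the factors that switch them on, among them SRF with its ELK partners and CREB, are already present in the resting cell and only need to be phosphorylated. Fos and Jun family proteins pair to form AP-1, a dimer that binds DNA and switches on the next wave of genes, and several immediate early products shut the response down again. In brain these genes are used as a record of neuronal activity, and in glia and blood vessels they also respond to injury, to growth factors and to the enzymes and warmth used to release single cells.

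The libraries were made in droplets with 3′ v3 reagents from 10x Genomics, so that every captured transcript carries a unique molecular identifier (UMI) at its 3′ end and is counted by it. The deposited tables list 12978 barcodes in library 1 and 19508 in library 2, with totals of 51452085 and 45532691 UMIs and medians of 3446 and 1470.0 UMIs per barcode. After filters on quality and doublets 12029 and 14082 cells remained, and the 2 libraries shared 90 barcode sequences. Clustering without the 10 genes gave 29 clusters, of which 25 were merged into 17 classes named from markers and 4 stayed unnamed, so class names are rebuilt here and each class is called by the markers it resembles. Of the named classes, 12 had at least 50 cells in both libraries, and every marker of the list behind each of these names had UMIs in its class. This is a weak check, since the classes were named from these markers. All 10 microglia markers also had UMIs in astrocyte-like cells of both libraries. The levels, shares and tests below cover these 12 classes unless another is named. All 17 named classes together held 10796 of the 12029 cells of library 1 and 7755 of the 14082 cells of library 2. Among the 12 the numbers of cells differed most for microglia-like cells, which numbered 92 in library 1 and 1761 in library 2. Differentiating oligodendrocyte-like cells numbered 484 and 50, ependymal-like cells 396 and 52, and pericyte-like cells 535 and 71. The leading genes of the pericyte-like cluster included the smooth muscle genes Acta2 and Tagln, and the smooth muscle markers summed to 4593 and 4228 CPM in this class. The name of inhibitory neuron-like cells rests mainly on library 2: inhibitory neuron markers summed to 1299 CPM in library 1 and 17908 CPM in library 2, against 892 and 933 CPM in neuroblast-like cells, while neuroblast markers summed to 4547 and 3575 CPM in inhibitory neuron-like cells. Cells summed by class and library were scaled to CPM, a gene's UMIs in the sum divided by all UMIs in the sum and multiplied by 1e6, and all levels below are on that scale.

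Over all barcodes of a library, which mixes the classes in the proportions each library holds, 8 of the 10 genes had a higher level in library 2. Atf3 stood at 9.95 CPM in library 1 and 100.4 CPM in library 2, and Junb at 84.1 and 281 CPM. Within microglia-like cells Atf3 was at 368 CPM in library 1 and 386 CPM in library 2, and Junb was at 1101 and 934 CPM. Both genes thus differed between whole libraries by more than they did within the class in which they were highest, and the number of microglia-like cells moved with them. Fos was at 209 and 207 CPM and Fosb at 16.8 and 15.9 CPM over all barcodes.

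The genes were placed in genome build mm10 with GENCODE release M21. Jun (chr4:95049034-95052222, minus strand) and Jund (chr8:70698949-70700616, plus strand) are genes of 1 exon. Junb (chr8:84974484-84978718, minus strand) and Ier2 (chr8:84661331-84662852, minus strand) share chromosome 8 with Jund. Fos lies at chr12:85473890-85477273 (plus strand), Fosb at chr7:19302696-19310051 (minus strand), Atf3 at chr1:191170296-191218039 (minus strand), Dusp1 at chr17:26505590-26562128 (minus strand) and Nr4a1 at chr15:101254269-101274795 (plus strand). Jun overlaps the antisense gene Junos by 689 bases, Jund overlaps the antisense gene Gm11175 by 919 bases, Junb overlaps the end of Prdx2 on the opposite strand by 351 bases, and Atf3 overlaps the small RNA gene Gm24748 on the opposite strand by 108 bases. Dusp1 overlaps Ergic1 by 640 bases and a processed pseudogene by 956 bases on the opposite strand, and on its own strand an intronic gene by 1853 bases and another processed pseudogene by 227 bases. How reads in such overlaps were counted is not stated in the labels or the processing notes, so the levels of these 5 genes are uncertain by whatever reads their neighbours contribute.

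Promoters are shown for Fos, Junb, Dusp1 and Nr4a1, which stand for the roles described below: a Fos partner, a Jun partner, a phosphatase and a nuclear receptor. Each is the 250 bases before the start site in the RefSeq annotation on GRCm38.p6, 5′ to 3′ on the gene's own strand. Capitals mark matches to the core of the cAMP response element, TGACG on the printed strand or CGTCA where it lies on the other one, to the whole element TGACGTCA, and to the EGR site GCGNGGGCG or its complement.
Fos, chr12:85473640-85473889, plus strand: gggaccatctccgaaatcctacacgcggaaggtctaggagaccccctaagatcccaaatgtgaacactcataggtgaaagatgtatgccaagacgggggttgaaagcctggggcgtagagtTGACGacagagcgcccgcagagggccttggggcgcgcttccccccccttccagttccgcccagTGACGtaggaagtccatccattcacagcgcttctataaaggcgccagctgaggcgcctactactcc
Junb, chr8:84978749-84978998, minus strand: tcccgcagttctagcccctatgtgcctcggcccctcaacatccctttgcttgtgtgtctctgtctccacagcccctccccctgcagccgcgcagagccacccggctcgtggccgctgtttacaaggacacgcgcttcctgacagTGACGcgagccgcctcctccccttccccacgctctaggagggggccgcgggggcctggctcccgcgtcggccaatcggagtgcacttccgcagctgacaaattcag
Dusp1, chr17:26508473-26508722, minus strand: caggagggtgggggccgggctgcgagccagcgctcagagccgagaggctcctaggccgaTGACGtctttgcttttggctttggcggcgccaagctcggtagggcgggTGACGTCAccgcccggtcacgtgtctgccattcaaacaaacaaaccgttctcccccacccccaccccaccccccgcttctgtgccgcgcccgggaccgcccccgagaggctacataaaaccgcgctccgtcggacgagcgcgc
Nr4a1, chr15:101266596-101266845, plus strand: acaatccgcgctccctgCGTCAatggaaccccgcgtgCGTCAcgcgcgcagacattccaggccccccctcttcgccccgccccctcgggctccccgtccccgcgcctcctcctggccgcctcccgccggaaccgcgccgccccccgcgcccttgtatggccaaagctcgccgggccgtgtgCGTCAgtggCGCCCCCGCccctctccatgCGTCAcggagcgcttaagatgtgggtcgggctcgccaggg
The core begins 129 and 66 bases before the start site in Fos and 106 bases before it in Junb. Dusp1 holds the whole element 143 bases before its start, in which the core is read on both strands, and a further core 191 bases before it. Nr4a1 holds 4 cores, the nearest 40 bases before its start, and an EGR site 60 bases before it. The RefSeq table had windows of 300 bases for 8 of the 10 genes. TGACG was found on either strand in 6 of these 8 windows and in 20.8% of the 32851 windows of the table. The whole element was in 1 of 8 (1.79% of all windows), the EGR site in 2 of 8 (5.55%), the AP-1 site TGANTCA in none (7.81%) and the CArG box, to which SRF binds, in none (1.63%). These are matches of letters in short windows, and for Jund, Atf3, Dusp1 and Nr4a1 the RefSeq window does not lie at the outermost start of the GENCODE gene. The printed windows of Dusp1 and Nr4a1 lie inside the GENCODE genes, which reach further upstream.

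Summed over the 10 genes, microglia-like cells had the highest level of the 12 classes, 5382 CPM in library 1 and 4269 CPM in library 2. Ependymal-like cells, the ciliated lining of the ventricles, came next with 3344 and 2906 CPM. Astrocyte-like cells followed with 2192 and 1717 CPM and neuroblast-like cells, the migrating young neurons, with 1953 and 1880.2 CPM, and these ranges overlapped. At the other end, oligodendrocyte precursor-like cells had 857 and 856 CPM, intermediate progenitor-like cells 812 and 594 CPM, the lowest value of library 2, and differentiating oligodendrocyte-like cells 419 and 664 CPM. By mean level, the highest class was 8.91 times the lowest. In between, endothelial-like cells had 1718 and 1710.1 CPM, inhibitory neuron-like cells 1493 and 1258 CPM, excitatory neuron-like cells 1317 and 1337 CPM, neural progenitor-like cells 1251 and 1141 CPM, and pericyte-like cells 1088 and 1169.6 CPM. Neighbours in this order whose ranges overlapped were astrocyte-like with neuroblast-like, inhibitory with excitatory neuron-like, neural progenitor-like with pericyte-like and intermediate progenitor-like with differentiating oligodendrocyte-like cells. All other neighbours were apart in both libraries. These levels are shares of all UMIs of a class and not amounts per cell. In libraries 1 and 2 the 10 genes had 1726 and 33600 UMIs in 92 and 1761 microglia-like cells. Ependymal-like cells had 7492 and 948 UMIs of these genes in 396 and 52 cells. Across the 12 classes the summed level had a correlation of -0.29 with the class's median UMI count per cell and of -0.20 with its mitochondrial share (Pearson's r, n = 12 classes that share 2 libraries, a description).

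**Figure D1:**
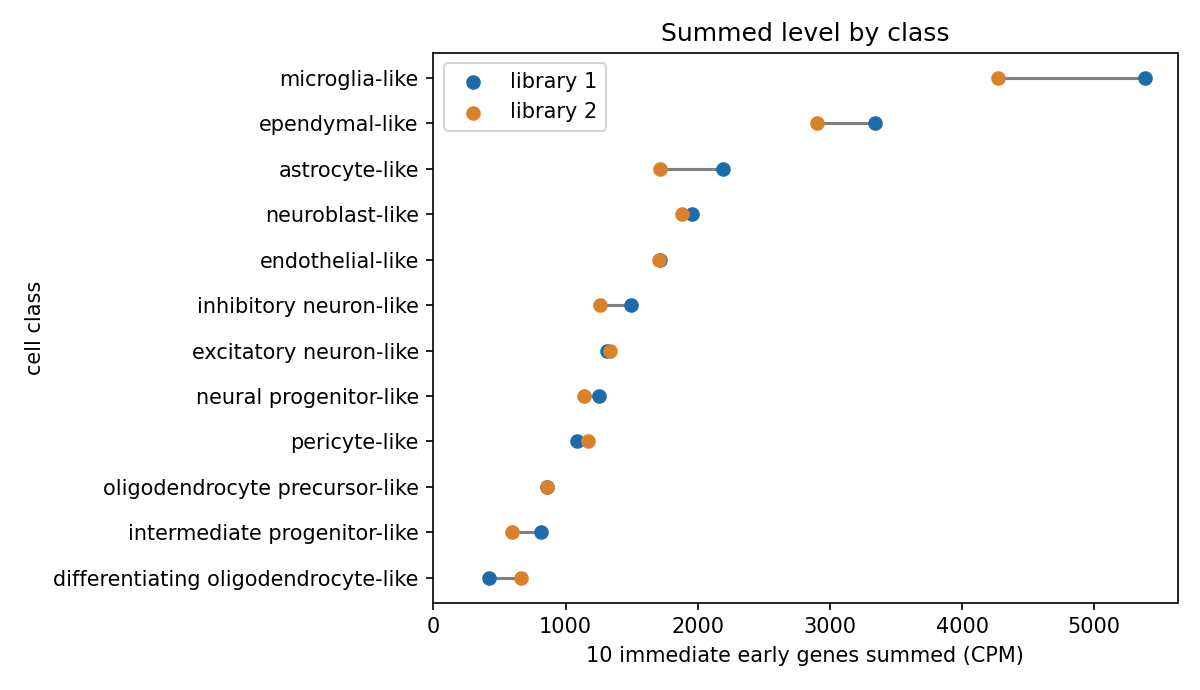
Summed CPM of the 10 immediate early genes in each of 12 cell classes, 1 point per library joined by a line, classes ordered by their mean. Microglia-like cells sit at 5382 and 4269 CPM, apart from every other class, and the lowest class, differentiating oligodendrocyte-like cells, sits at 419 and 664 CPM.

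Fos and Fosb, which act as partners of Jun proteins in AP-1, were high in ependymal-like, astrocyte-like and microglia-like cells. Fos was at 706 and 684 CPM in ependymal-like cells, 726 and 525 CPM in astrocyte-like cells and 549 and 337 CPM in microglia-like cells in libraries 1 and 2. The next class, pericyte-like cells, had 149.6 and 137.8 CPM, so these 3 classes stood above the other 9 in both libraries. Neuronal classes were low in Fos: 67.5 and 86.1 CPM in excitatory neuron-like cells, 68.2 and 41.9 CPM in inhibitory neuron-like cells and 83.3 and 69.0 CPM in neuroblast-like cells. So were the glial oligodendrocyte classes, with 80.1 and 92.0 CPM in oligodendrocyte precursor-like cells. Differentiating oligodendrocyte-like cells had the least Fos, 17.7 and 28.7 CPM. Fosb had a steeper pattern, with 126.8 and 125.7 CPM in ependymal-like cells against 32.1 and 18.4 CPM in astrocyte-like cells and 31.2 and 32.4 CPM in microglia-like cells. In the 3 neuronal classes Fosb stayed at or below 2.99 CPM in both libraries, and inhibitory neuron-like cells had 1 UMI of Fosb in library 1 and 0 in library 2.

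The Jun family differed among its members. Jun, the founding AP-1 subunit, which can pair with itself or with Fos, was at 1300.4 and 1016 CPM in microglia-like cells, against 590 and 444 CPM in ependymal-like and 563 and 503 CPM in neuroblast-like cells, which overlapped each other. Its lowest level was in intermediate progenitor-like cells, at 106.9 and 79.3 CPM. Junb, a Jun relative that can hold Jun activity in check, was at 1101 and 934 CPM in microglia-like cells, and then came 2 vessel classes and the ventricular and astrocytic ones: endothelial-like cells with 382 and 338 CPM, pericyte-like cells with 224 and 212 CPM, ependymal-like cells with 152 and 187 CPM and astrocyte-like cells with 180.1 and 143 CPM. All other classes stayed at or below 50.9 CPM of Junb, and differentiating oligodendrocyte-like cells had 8.55 and 9.58 CPM. Jund, the member known for being present in resting cells, was the flattest of the 10. Its class means spanned 3.74-fold, with 952 and 930.3 CPM in neuroblast-like, 984 and 772 CPM in ependymal-like and 982 and 732 CPM in microglia-like cells at the top and 200.5 and 303 CPM in differentiating oligodendrocyte-like cells at the bottom. These 3 top classes of Jund overlapped and changed places between libraries.

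Atf3, a stress-induced factor of the ATF/CREB family that pairs with Jun proteins, was concentrated in microglia-like cells, at 368 and 386 CPM. Ependymal-like cells were next with 59.4 and 46.0 CPM. Endothelial-like cells had 16.8 and 16.2 CPM and pericyte-like cells 12.1 and 11.2 CPM, and astrocyte-like cells had 7.26 and 6.49 CPM. The neuronal, progenitor and oligodendrocyte classes were all at or below 4.35 CPM, and oligodendrocyte precursor-like cells held 6 UMIs of Atf3 in library 1 and 0 in library 2, among 1367 and 560 cells.

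Egr1, a zinc finger factor that is widely used to mark active neurons, was also highest in microglia-like cells, at 568 and 449 CPM. Ependymal-like cells followed with 275 and 254 CPM, neural progenitor-like cells with 216 and 176.8 CPM and astrocyte-like cells with 166 and 174 CPM. Egr1 was lowest in differentiating oligodendrocyte-like cells (10.9 and 16.0 CPM) and in endothelial-like cells (23.2 and 32.3 CPM), where most other members were high. Nr4a1, an orphan nuclear receptor, reached 118.7 and 82.8 CPM in ependymal-like cells and 87.3 and 68.9 CPM in microglia-like cells, which overlapped. Astrocyte-like cells had 46.8 and 31.0 CPM of Nr4a1, and the neuroblast-like and neuronal classes stayed at or below 5.24 CPM. Nr4a1 and Fosb were thus the members, besides Atf3, that were near the limit of detection in neurons and young neurons.

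Ier2, a small nuclear protein of the early growth response, was highest in endothelial-like cells, at 302 and 334 CPM, and next in microglia-like cells, at 299 and 210.0 CPM. It was at 155 and 173 CPM in astrocyte-like and 127 and 171 CPM in pericyte-like cells. Oligodendrocyte precursor-like cells had 52.6 and 49.4 CPM and differentiating oligodendrocyte-like cells 12.98 and 9.58 CPM, which were the lowest 2 classes in both libraries. Dusp1, a phosphatase that switches off MAP kinases and so ends the signal that induces these genes, was highest in ependymal-like cells, at 205 and 187 CPM. Endothelial-like cells followed with 116.1 and 106.5 CPM and microglia-like cells with 96.7 and 103 CPM, ranges that did not overlap. The lowest level of Dusp1 was 4.13 and 3.19 CPM in differentiating oligodendrocyte-like cells.

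**Figure D2:**
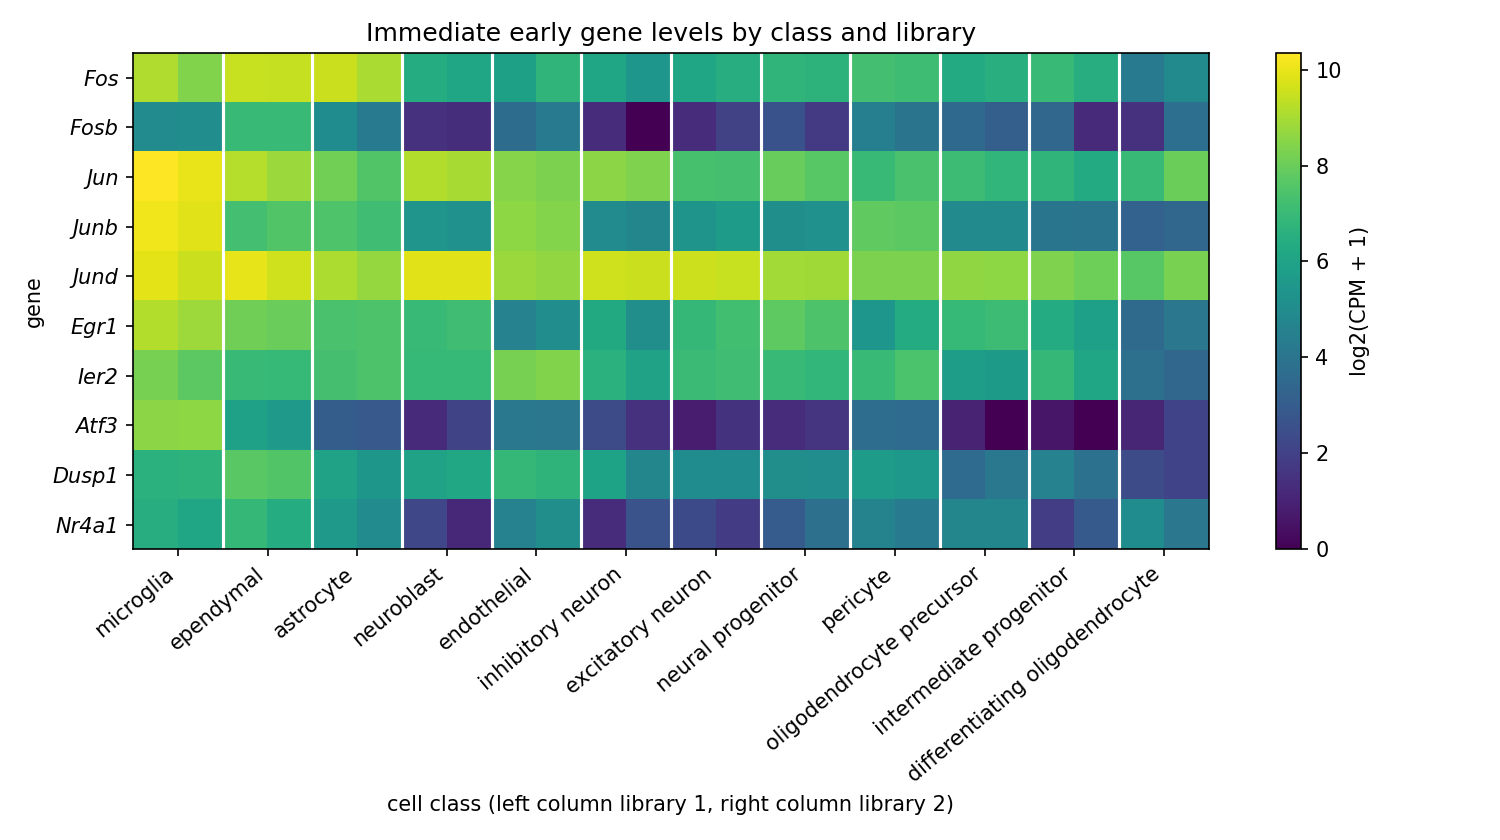
Level (CPM, log scale) of each of the 10 genes in 12 cell classes, shown for each library. Microglia-like cells are highest for Jun, Junb, Egr1 and Atf3, ependymal-like cells for Fos, Fosb, Dusp1 and Nr4a1 by their mean, endothelial-like cells for Ier2 and neuroblast-like cells for Jund.

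The classes also differed in which members made up the total. The kit counts each molecule at its 3′ end, so shares of UMIs are shares of molecules. Jund gave 55.7% of the 10 genes' UMIs in excitatory neuron-like, 55.2% in inhibitory neuron-like and 49.1% in neuroblast-like cells (means of 2 libraries). It also gave 46.8% in differentiating oligodendrocyte-like and 45.5% in oligodendrocyte precursor-like cells. Its share was 42.4% in intermediate progenitor-like and 39.2% in neural progenitor-like cells, against 17.7% in microglia-like cells. In astrocyte-like cells the largest share was that of Fos, 31.9%, and in ependymal-like cells Fos gave 22.3%. Junb made up 21.2% in microglia-like cells, 21.01% in endothelial-like cells and 19.4% in pericyte-like cells, and 2.003% in neuroblast-like cells. Ier2 had its largest share, 18.6%, in endothelial-like cells. Egr1 gave 16.4% in neural progenitor-like and 14.97% in oligodendrocyte precursor-like cells. Atf3 gave 7.94% in microglia-like cells and at most 1.68% in any other of the 12 classes. Microglia-like, endothelial-like and pericyte-like cells shared a Junb-rich makeup and astrocyte-like cells had a Fos-rich one. The neuronal, progenitor and oligodendrocyte classes shared one with 39.2% to 55.7% of Jund.

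**Figure D3:**
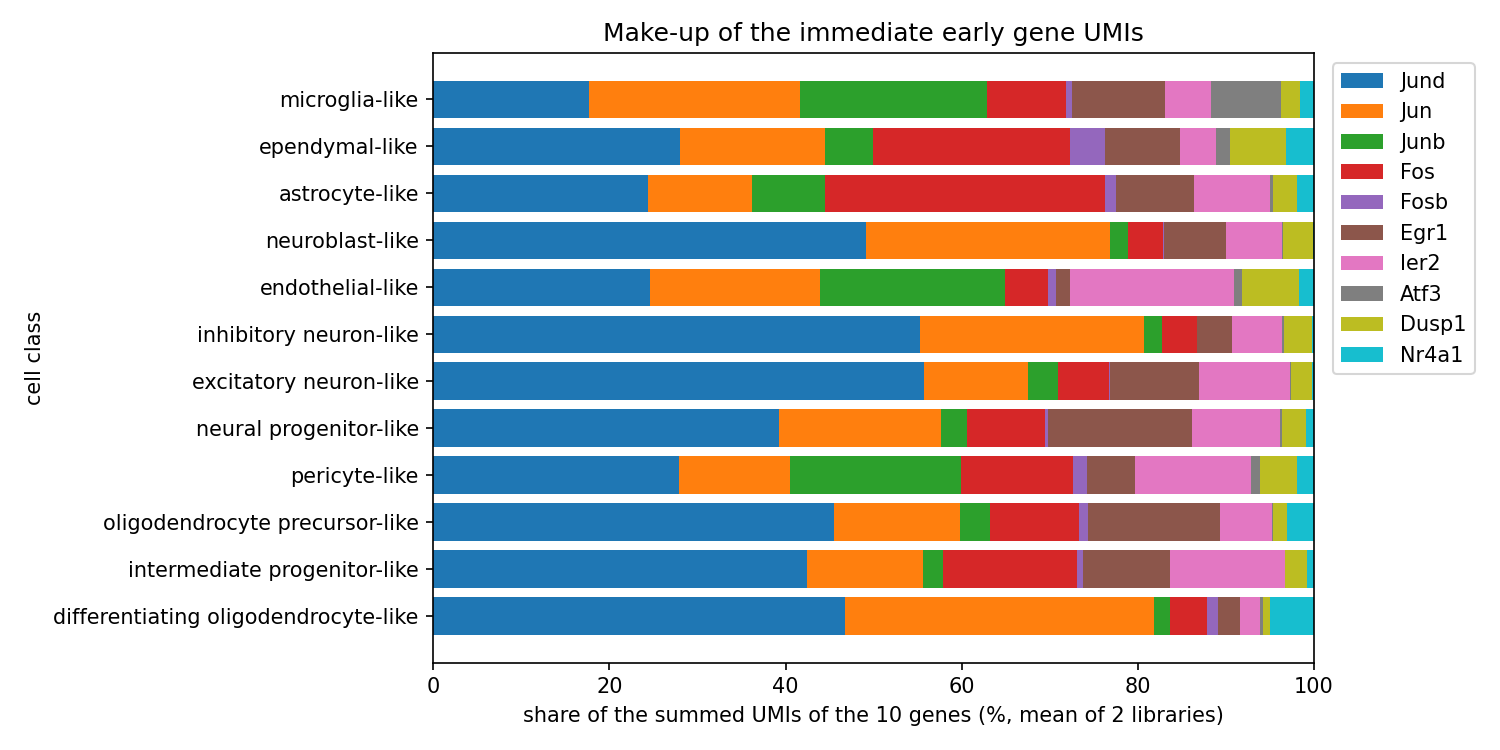
Share of each gene in the summed UMIs of the 10 genes (%), mean of 2 libraries, 1 stacked bar per class. Jund fills 55.7% of the bar of excitatory neuron-like cells and 17.7% of that of microglia-like cells, and Fos fills 31.9% of that of astrocyte-like cells.

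In the tests that follow, a class was compared with the mean log2 level of the other 11 classes in a fit of 13295 genes with the quasi-likelihood test of edgeR. All 10 members passed the filter on low counts. The 13295 genes lack the 2000 variable genes used for clustering and the markers, whereas the members and the other lists were kept out of clustering and stayed testable. The shares of all genes given below thus leave out many genes that vary between cells, and the effect of this on those shares was not tested. A gene was called at a Benjamini-Hochberg adjusted p under 0.05, a change of at least 2-fold and the same sign in both libraries. Fold changes are on the log2 scale with their standard error, and the levels beside them are the class's own and the median of the other classes. Since the fit uses the mean of log2 levels, a fold change can differ from the ratio to that median.

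All 10 members were higher in microglia-like cells, the resident macrophages of the brain. Over all genes tested 20.7% were called higher in this comparison and 12.3% lower. The members' median log2 fold change was 2.89, against 0.14 over all genes. Atf3 showed the largest difference, with 368 and 386 CPM in microglia-like cells against a median of 1.49 and 3.19 CPM in the other classes (log2 fold change 7.22 ± 0.13, adjusted p = 8.38e-55). Junb came next with 1101 and 934 CPM against 39.4 and 37.1 CPM (4.63 ± 0.09, adjusted p = 6.16e-52). The remaining 8 members ranged between 1.23 for Jund and 3.03 for Nr4a1. Among them Egr1 (3.01 ± 0.10), Fosb (2.95 ± 0.22), Jun (2.83 ± 0.09) and Fos (2.32 ± 0.11) were all at least 4-fold higher. The smallest difference was that of Jund, with 982 and 732 CPM in microglia-like cells against 475 and 418 CPM (adjusted p = 3.48e-18). Being higher than the mean of the other classes did not make microglia-like cells the highest class for every gene: Fos, Jund and Dusp1 had a higher mean level in 2 other classes, and Fosb, Ier2 and Nr4a1 in 1. The microglia-like cells were 2 clusters, the larger led by Spp1, Gdf15 and Cxcl10, which are stress and immune genes, and the smaller led by Cx3cr1 and P2ry12. Summed over the 10 genes, the larger had 5650.1 and 4577 CPM and the smaller, with 11 cells in library 1 and 320 in library 2, had 3910.0 and 3266 CPM. Outside the class stayed 2 unnamed clusters whose best match was also microglia, with 1445 and 3431 barcodes in library 2. Their summed levels in that library were 2508 and 1985 CPM.

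Endothelial-like cells, which line blood vessels, had 6 members higher and 1 lower, where 15.1% of all genes were called higher and 10.3% lower. Their median log2 fold change was 1.18, against -0.14 over all genes. Junb had 382 and 338 CPM in endothelial-like cells against a median of 39.4 and 37.1 CPM in the other classes (2.77 ± 0.12, adjusted p = 4.15e-30). Ier2 had 302 and 334 CPM against 127 and 122 CPM (1.90 ± 0.12, adjusted p = 7.51e-22). Dusp1 had 116.1 and 106.5 CPM against 50.4 and 33.1 CPM (1.76 ± 0.18, adjusted p = 2.70e-13). The others called higher were Atf3 (2.02 ± 0.43), Fosb (1.20 ± 0.45) and Nr4a1 (1.16 ± 0.33), all at levels under 34 CPM. The call of Fosb was lost with doublets kept (1.02, adjusted p = 0.0791), at resolution 0.5 (0.68, adjusted p = 0.165) and at resolution 2 (0.89, adjusted p = 0.145), and that of Nr4a1 at resolution 0.5 (0.98). Egr1 went the other way, with 23.2 and 32.3 CPM in endothelial-like cells against 120.3 and 144 CPM (-1.78 ± 0.27, adjusted p = 6.98e-08). Jun was at 348 and 313 CPM (0.62 ± 0.13) and missed the fold threshold. With library 1 alone, where no test is possible, Fosb (0.60) and Nr4a1 (0.85) were under 2-fold and Fos was at -1.005, so that 4 members lay past the threshold upward and 2 downward.

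Pericyte-like cells, the mural cells of small vessels, had 3 members higher and 2 lower, where 15.1% of all genes were called higher and 8.31% lower. The median over the members was 0.40 on the log2 scale, against -0.01 over all genes. Junb had 224 and 212 CPM in pericyte-like cells against a median of 39.4 and 37.1 CPM (1.88 ± 0.13, adjusted p = 5.57e-21), and none of the 13 alternatives tried ended this call. Fosb with 20.98 and 14.9 CPM (1.43 ± 0.33, adjusted p = 0.00027) and Atf3 with 12.1 and 11.2 CPM (1.54 ± 0.39, adjusted p = 0.000726) were also called higher. Both of these calls were lost when smooth muscle-like cells formed a cluster of their own and left the class, which happened at resolution 2 (93 cells in library 1 and 14 in library 2) and under stricter quality limits (73 and 11 cells). Fosb was then at 0.19 and 0.82 and Atf3 at -2.44 and -0.90. The call of Fosb was also lost at resolution 0.5 (0.86), where the class held the same 535 and 71 cells, and with 50 cells per class and library (-0.57). That of Atf3 was also lost with doublets kept (0.90) and with 50 cells (1.40). The cause of these losses was not tested. Jun was lower, with 123.2 and 164 CPM in pericyte-like cells against 281 and 262 CPM (-1.02 ± 0.16), and so was Egr1, with 42.4 and 81.9 CPM against 120.3 and 144 CPM (-1.01 ± 0.20). The 2 lower calls sit at the fold threshold. DESeq2 made 0 of them, with Jun at -0.96 and Egr1 at -0.93, and 3 higher calls, and at an unadjusted p under 0.05 edgeR had 6 members higher and 3 lower. Without library 1, whose pericyte-like cells outnumber those of library 2, only Junb of the 3 genes stayed past 2-fold, with Fosb at 0.88, Atf3 at 0.90, Jun at -0.75 and Egr1 at -0.40.

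Astrocyte-like cells had 4 members higher and none lower, where 17.2% of all genes were called higher and 3.72% lower. The members' median log2 fold change was 0.63, against 0.02 over all genes. At an unadjusted p under 0.05 edgeR had 7 members higher and 2 lower, and DESeq2 called 4 higher and none lower. Fos had 726 and 525 CPM in astrocyte-like cells against a median of 83.3 and 92.0 CPM in the other classes (2.41 ± 0.08, adjusted p = 4.55e-36), and no alternative ended this call. Fosb with 32.1 and 18.4 CPM (1.70 ± 0.20, adjusted p = 1.85e-11), Nr4a1 with 46.8 and 31.0 CPM (1.36 ± 0.16, adjusted p = 2.28e-11) and Junb with 180.1 and 143 CPM (1.19 ± 0.10, adjusted p = 5.95e-17) were the other 3. Egr1 (0.74) and Ier2 (0.52) were higher by less than 2-fold. Under stricter quality limits Fosb (0.85) and Junb (0.83) were no longer past 2-fold, which left 2 members called. Junb was also under 2-fold with doublets kept (0.71), at resolution 2 (0.69) and with 50 cells per class and library (0.82), and Fosb at resolution 0.5 (0.65). The class includes a cluster led by Ttr, a gene of the choroid plexus, and choroid plexus markers summed to 3788 CPM in library 1 and 221 CPM in library 2. At resolution 0.5 and under stricter limits a cluster led by Ttr (719 and 156 cells, and 614 and 135 cells) was named choroid plexus epithelial-like and left the class. At resolution 0.5 the estimate of Atf3 was -1.11 in the remaining astrocyte-like cells.

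Oligodendrocyte precursor-like cells, the dividing and migrating parents of the myelinating lineage, had 5 members lower and none higher, where 3.08% of all genes were called lower and 13.6% higher. The members' median log2 fold change was -0.99, against 0.05 over all genes. Dusp1 had 11.4 and 16.8 CPM in oligodendrocyte precursor-like cells against a median of 60.5 and 44.0 CPM (-1.92 ± 0.18, adjusted p = 7.52e-15). Junb had 28.8 and 30.1 CPM against 40.7 and 50.9 CPM (-1.49 ± 0.14, adjusted p = 5.15e-14). Ier2 had 52.6 and 49.4 CPM against 127 and 123 CPM (-1.28 ± 0.12, adjusted p = 2.89e-14), and Jun 134 and 110.1 CPM against 281 and 262 CPM (-1.25 ± 0.12, adjusted p = 3.16e-14). Atf3 was called lower too, but on 6 UMIs in library 1 and 0 in library 2. The lower calls thus covered AP-1 members, the phosphatase and Ier2, while Egr1 (120.3 and 136 CPM, 0.31 ± 0.11), Nr4a1 (26.1 and 25.8 CPM, 0.69 ± 0.18) and Fosb (10.5 and 7.74 CPM, 0.11 ± 0.26) had positive estimates under 2-fold. At an unadjusted p under 0.05 edgeR had 2 members higher and 7 lower, and DESeq2 called none higher and 5 lower. With every class reduced to 50 cells in each library, 3 of the 5 lower calls were made, those of Jun, Ier2 and Dusp1.

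Neuroblast-like cells had 2 members higher and 3 lower, where 10.3% of all genes were called higher and 8.25% lower. Over the members the median log2 fold change was -0.22, against 0.04 over all genes. Jun had 563 and 503 CPM in neuroblast-like cells against a median of 243 and 198 CPM (1.24 ± 0.09, adjusted p = 2.74e-19) and Jund 952 and 930.3 CPM against 475 and 418 CPM (1.04 ± 0.08, adjusted p = 3.60e-17). Nr4a1 was lower, with 3.57 and 1.29 CPM against 23.7 and 18.6 CPM (-2.74 ± 0.34, adjusted p = 3.50e-10), and so was Fosb, with 1.78 and 1.55 CPM against 10.5 and 12.8 CPM (-2.39 ± 0.56, adjusted p = 0.000255). Atf3, at 1.39 and 3.36 CPM, was the last of the 3 (-1.20 ± 0.43, adjusted p = 0.0166). Counted from the highest level of Atf3, neuroblast-like cells had rank 8 in library 1 and rank 6 in library 2. In library 2 differentiating oligodendrocyte-like cells came next with 3.19 CPM. The lower call of Atf3 is against a mean of log2 levels that includes microglia-like cells at 368 and 386 CPM. Young neurons thus held 2 Jun family members high and 3 inducible factors near the detection limit. The calls of Jund (7 of 13 alternatives) and Atf3 (5 of 13) were the least stable. Jund fell under 2-fold with the size factors of DESeq2 (0.92) and without library 2 (0.99), and without library 1 Atf3 was at -0.61 and Dusp1 at 1.08.

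Excitatory neuron-like cells were compared with neuroblast-like cells directly. Neuroblast markers summed to 4678 and 4704 CPM in excitatory neuron-like cells and 5836 and 6008 CPM in neuroblast-like cells. The larger excitatory neuron-like cluster was led by Neurod1 and the largest neuroblast-like one had Dlx5, Dlx2 and Gad2 among its leading genes, so lineage and stage cannot be told apart in this comparison. Of the members, 2 were lower and none higher, where 6.24% of all genes were called lower and 9.05% higher. The median of the 10 log2 fold changes was -0.14, against -0.02 over all genes. Jun had 160.2 and 154.9 CPM in excitatory neuron-like cells against 563 and 503 CPM in neuroblast-like cells (-1.88 ± 0.14, adjusted p = 2.03e-18). Dusp1 had 31.6 and 31.8 CPM against 60.5 and 70.1 CPM (-1.15 ± 0.16, adjusted p = 3.24e-08). The other members differed by under 2-fold: Fos was at 67.5 and 86.1 CPM in excitatory neuron-like cells against 83.3 and 69.0 CPM in neuroblast-like cells (-0.13 ± 0.16), and Egr1 at 119.0 and 147.8 CPM against 125.5 and 144 CPM (-0.14 ± 0.14). At an unadjusted p under 0.05 edgeR had 0 members higher and 3 lower, and DESeq2 called 0 higher and 2 lower. Dusp1 was no longer past 2-fold under stricter quality limits (-0.95).

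**Figure D4:**
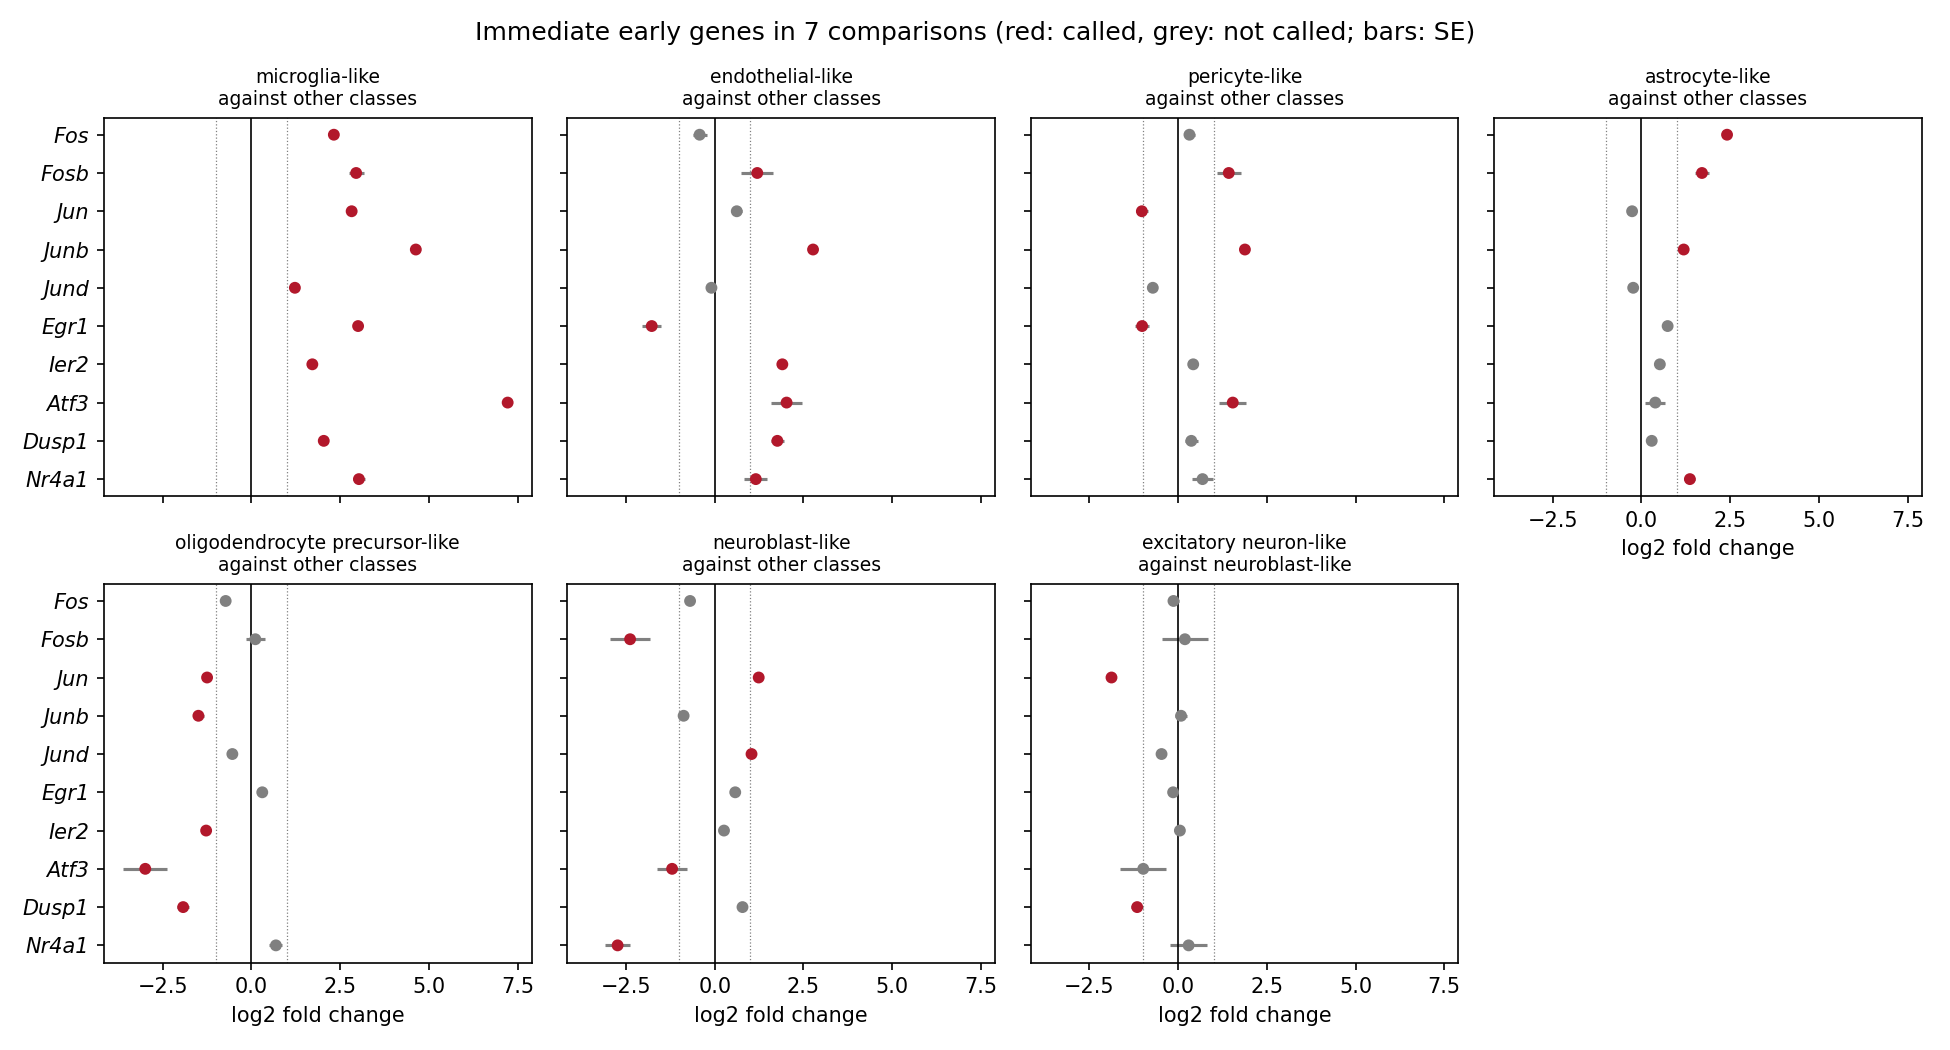
Log2 fold change of each of the 10 genes in 7 comparisons between cell classes, 1 panel per comparison. Points are estimates, bars are standard errors, called genes are set apart from the others and lines mark 2-fold. All 10 points lie right of the line for microglia-like cells, while 5 lie left of it for oligodendrocyte precursor-like cells.

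Microglial RNA outside microglia was low but differed between libraries. The 10 microglia markers summed to 17070 and 15579 CPM in microglia-like cells. In the other 11 classes they summed to between 8.71 and 62.7 CPM in library 1 and between 66.6 and 268 CPM in library 2. Ependymal-like cells of library 1 had 6 of the 10 at 0, among them Cx3cr1, P2ry12 and Tmem119, with Atf3 at 59.4 CPM. In all 11 classes the markers were thus higher in library 2, whereas the summed level of the 10 genes was higher in library 1 in 9 of the 12 classes, microglia-like cells included. The part that this RNA has in the levels of the other classes was not tested.

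Genes of the same response were taken from 7 further lists. In microglia-like cells, where 20.7% of all genes were called higher and 12.3% lower, of the other AP-1 and related bZIP factors 11 of 12 tested were higher and none lower, with a median log2 fold change of 2.50. Cebpb, a bZIP factor of inflammation, had 365 and 434 CPM against a median of 13.03 and 16.2 CPM in the other classes. Of the feedback inhibitors 16 of 22 were higher and 3 lower (median 3.05). Zfp36, which destabilises inflammatory messenger RNAs, had 443 and 329 CPM against 3.32 and 5.24 CPM (6.14 ± 0.12), and Tnfaip3, an inhibitor of NF-κB signalling, 143 and 150.4 CPM against 0.89 and 1.497 CPM (7.27 ± 0.18). Of the other rapid response transcription factors 10 of 15 were higher and 1 lower (median 2.26), among them Klf2 with 93.6 and 72.3 CPM and Ier5 with 256 and 209 CPM. Of the secreted and matrix genes 7 of 11 were higher and 1 lower. Ccl3, a chemokine with the near-identical neighbour Ccl4, so that reads may be split between them, had 1743 and 1174 CPM. Of the heat shock genes 7 of 14 were higher and none lower (median 1.06). Hspa1a and Hspa1b, 2 nearly identical genes whose separate values are uncertain, had 4662 and 3625 CPM and 5289 and 4132 CPM, against medians of 57.9 and 57.7 CPM and 62.9 and 79.5 CPM. The upstream kinases and factors had 9 of 18 higher and 2 lower (median 0.98). The neuronal activity genes, such as Arc and Bdnf, had 2 of 10 higher and none lower, with a median of -1.27, and their share of higher calls is near that of all genes.

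In endothelial-like cells 15.1% of all genes were called higher and 10.3% lower. Klf2, a factor induced by blood flow, had 414 and 507 CPM in endothelial-like cells against a median of 1.45 and 3.49 CPM (7.62 ± 0.14), and its relative Klf4 had 61.9 and 83.5 CPM (4.10 ± 0.27). Of the other rapid response factors 6 of 15 were higher and 1 lower, of the feedback inhibitors 9 of 22 higher and 2 lower, and of the AP-1 related factors 5 of 12 higher and none lower. Dusp6, a phosphatase for ERK, had 94.2 and 107.8 CPM against 11.9 and 12.98 CPM. The heat shock genes had 2 of 14 higher, near the share of all genes, and 3 lower, among which Hsp90aa1 had 136.8 and 152.3 CPM against 565 and 538 CPM. Of the neuronal activity genes 2 of 10 were higher and none lower, with Plk2 at 191 and 184.6 CPM against 17.4 and 21.5 CPM. The secreted and matrix genes had 3 of 11 higher and none lower, with Ccn2 at 46.4 and 45.8 CPM, and the kinases and factors 6 of 18 higher and 2 lower.

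In pericyte-like cells, where 15.1% of all genes were called higher and 8.31% lower, the feedback inhibitors had 11 of 22 higher and 2 lower. Gadd45b had 153.6 and 145.3 CPM against a median of 9.59 and 11.2 CPM (3.62 ± 0.14) and Spry4, an inhibitor of growth factor signalling, 81.7 and 74.5 CPM against 3.12 and 3.19 CPM (5.21 ± 0.22). The secreted and matrix genes had 6 of 11 higher, the AP-1 related factors 4 of 12, the heat shock genes 3 of 14 with 2 lower, the kinases and factors 3 of 18 with 2 lower, and the other rapid response factors 2 of 15. Of the neuronal activity genes 4 of 10 were lower and none higher. In astrocyte-like cells, where the shares of all genes were 17.2% higher and 3.72% lower, 7 of 22 feedback inhibitors were higher and 3 lower, and 6 of 15 other rapid response factors higher and 2 lower. Spry2 had 427 and 479 CPM there against 79.8 and 57.5 CPM (2.70 ± 0.09), Socs3, an inhibitor of cytokine signalling, 54.4 and 35.0 CPM against 8.05 and 8.78 CPM, and Bhlhe40 45.9 and 36.8 CPM against 3.12 and 5.24 CPM. The heat shock genes were mostly not called in astrocyte-like cells (1 of 14 higher, 3 lower), and Hspa1a was lower, with 28.3 and 29.5 CPM against 86.1 and 67.5 CPM (-2.19 ± 0.20). Astrocyte-like cells thus had Fos high and Hspa1a low, while microglia-like cells had both high. The neuronal activity genes had 4 of 10 higher and 1 lower in astrocyte-like cells, the secreted genes 3 of 11 higher, the AP-1 related factors 2 of 12 higher and 1 lower, and the kinases and factors none of 18 in either direction.

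In oligodendrocyte precursor-like cells, where 13.6% of all genes were called higher and 3.08% lower, the feedback inhibitors went both ways, with 5 of 22 higher and 7 lower. Spry4 had 63.6 and 64.1 CPM against 3.12 and 3.19 CPM (4.66 ± 0.17) and Spry2 330 and 373 CPM against 79.8 and 57.5 CPM (2.31 ± 0.09), while Zfp36 had 2.66 and 2.15 CPM against 3.80 and 6.03 CPM (-2.20 ± 0.32). Both Sprouty genes, which damp receptor tyrosine kinase signals, were thus high in the class in which 5 of the 10 members were low. Myc had 23.6 and 30.5 CPM against 5.36 and 8.23 CPM (2.09 ± 0.18). The heat shock genes had 3 of 14 lower and the AP-1 related factors 2 of 12 lower, with none higher in either list. The other rapid response factors had 2 of 15 in each direction, the kinases and factors 1 of 18 in each, the neuronal activity genes 2 of 10 higher, with Nptx2 at 36.4 and 27.5 CPM, and the secreted genes none of 11 in either direction.

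Neuroblast-like cells had 6 of 22 feedback inhibitors higher and 9 lower, where 10.3% of all genes were called higher and 8.25% lower. Btg1, an inhibitor of cell division, had 955 and 900 CPM in neuroblast-like cells against a median of 226 and 214 CPM (2.25 ± 0.08), and Zfp36l1 had 5.75 and 4.65 CPM against 198 and 173 CPM (-3.98 ± 0.37). The neuronal activity genes had 3 of 10 higher, the kinases and factors 3 of 18 in each direction, the AP-1 related factors 3 of 12 lower, the heat shock genes 2 of 14 lower, the other rapid response factors 1 of 15 in each direction and the secreted genes none of 11. Against neuroblast-like cells, where 9.05% of all genes were called higher and 6.24% lower, excitatory neuron-like cells had 1 of 10 neuronal activity genes higher: Nrn1, a membrane protein of maturing neurites, with 76.3 and 76.3 CPM in excitatory neuron-like cells and 0.79 and 0.78 CPM in neuroblast-like cells (6.42 ± 0.31). Btg1 was lower, with 226 and 253 CPM in excitatory neuron-like cells against 955 and 900 CPM in neuroblast-like cells (-2.08 ± 0.13), as Jun was. The other lists had 3 of 15 rapid response factors higher and 2 lower, 1 of 22 feedback inhibitors higher and 4 lower, 1 of 18 kinases and factors in each direction, and 2 of 12 AP-1 related factors, 3 of 11 secreted genes and 2 of 14 heat shock genes lower with none higher.

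Across the 12 classes, the summed level of the 10 genes followed that of the feedback inhibitors (r = 0.80), the other AP-1 related factors (r = 0.81) and the secreted genes (r = 0.83), and less the heat shock genes (r = 0.60). The neuronal activity genes had r = -0.01 with the members. The 5 tested genes outside the members whose pattern over the 24 class sums was most like the members' mean were Zfp36 (r = 0.92), Per1 (r = 0.90), Wnk1 (r = 0.88), Sdcbp (r = 0.88) and Zfp395 (r = 0.87). Among the members the most alike pair was Junb with Atf3 (r = 0.87), followed by Ier2 with Dusp1 (r = 0.84) and Fosb with Nr4a1 (r = 0.82), and the least alike was Jund with Nr4a1 (r = -0.06). These correlations are of log2(CPM + 1) for single genes, the points share 2 libraries and their depths, and they are descriptions without a test.

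Clusters within a class differed as well, and the values are given as a description since the clusters were drawn from the same cells. Astrocyte-like cells comprised a cluster led by Aqp4 (545 cells in library 1 and 404 in library 2) and one led by Ttr and Crym (730 and 160.0 cells). Fos was at 813 and 557 CPM in the Aqp4-led cluster and 635 and 401 CPM in the other. Junb (270 and 169.7 CPM against 85.5 and 37.6 CPM), Egr1 (232 and 205 CPM against 95.3 and 50.1 CPM) and Ier2 (228 and 205 CPM against 78.2 and 46.5 CPM) were all higher in the Aqp4-led cluster, while Jund was lower there (403 and 343 CPM against 678 and 719 CPM). Of the oligodendrocyte precursor-like clusters, the smaller, which had Sapcd2 among its leading genes (143 and 112 cells), had less Fos and Jun than the larger (1224 and 448 cells). Fos was at 37.8 and 32.3 CPM in the smaller and 88.7 and 118.4 CPM in the larger, and Jun at 60.9 and 51.9 CPM against 149.2 and 135.8 CPM.

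Cell by cell, several of the genes together were found in most microglia-like cells and in a minority of the cells of the other 11 tested classes. To compare cells of unequal depth, each cell was thinned to 1000 UMIs and cells with fewer were left out (between 0 and 124 per class and library). UMIs of at least 3 of the 10 genes were then found in 62.2% of microglia-like cells in library 1 (95% exact interval 51.4 to 72.2%, 90 cells) and 54.3% in library 2 (51.9 to 56.7%, 1751 cells). Border macrophage-like cells, which were too few for the tests, had 63.6% and 51.6% (44 and 161 cells), with intervals that overlapped those of microglia-like cells. Ependymal-like cells had 38.3% and 34.6%, astrocyte-like cells 17.6% and 14.2%, and endothelial-like cells 14.7% and 14.9%. Neuroblast-like cells had 11.8% and 10.9%, pericyte-like cells 9.66% and 11.6%, and neural progenitor-like cells 8.77% and 7.31%. In excitatory neuron-like cells the share was 6.15% and 7.66%, in inhibitory neuron-like cells 5.59% and 5.26%, in oligodendrocyte precursor-like cells 4.79% and 4.54% and in intermediate progenitor-like cells 3.75% and 1.80%. Differentiating oligodendrocyte-like cells had 0.62% in library 1 and 0 of 50 cells in library 2, which allows a share of up to 6.00% by a limit of 3 counts (exact upper bound 7.11%). Erythroid-like cells of library 2 gave 0 of 29 cells (exact upper bound 11.9%), but erythroid markers made up 624980 CPM of their UMIs, which leaves fewer UMIs for any other gene at 1000 UMIs per cell. They are thus no like background for the other classes, and how far free RNA gives the low shares was not tested. The intervals and limits cover counting error alone.

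Without thinning, the shares were 90.2% and 90.01% in microglia-like cells, with median depths of 3115 and 3930 UMIs, and 71.7% and 65.4% in ependymal-like cells, with 4862 and 6250.5 UMIs. They were 50.5% and 50.9% in astrocyte-like cells, 67.3% and 65.9% in endothelial-like cells and 15.9% and 11 of 50 cells in differentiating oligodendrocyte-like cells, with 6651.5 and 6023 UMIs. Endothelial-like cells were above astrocyte-like cells without thinning, and their intervals overlapped with it. The genes behind the shares differed by class. At 1000 UMIs Junb was seen in 60.0% and 53.6% of microglia-like cells and Atf3 in 23.3% and 24.2%, while in differentiating oligodendrocyte-like cells of library 1 they were seen in 0.83% and 0.21%. Fos was seen in 32.2% and 24.7% of microglia-like, 39.1% and 32.7% of ependymal-like and 32.4% and 27.1% of astrocyte-like cells. The intervals of these 3 classes for Fos overlapped in both libraries, whereas Atf3 was seen in 0.47% and 0.36% of astrocyte-like cells. Few microglia-like cells lacked the genes altogether: 6.67% and 8.85% of them had no UMI of any member at 1000 UMIs, against 31.5% and 36.6% of astrocyte-like cells and 68.6% and 66.0% of differentiating oligodendrocyte-like cells.

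**Figure D5:**
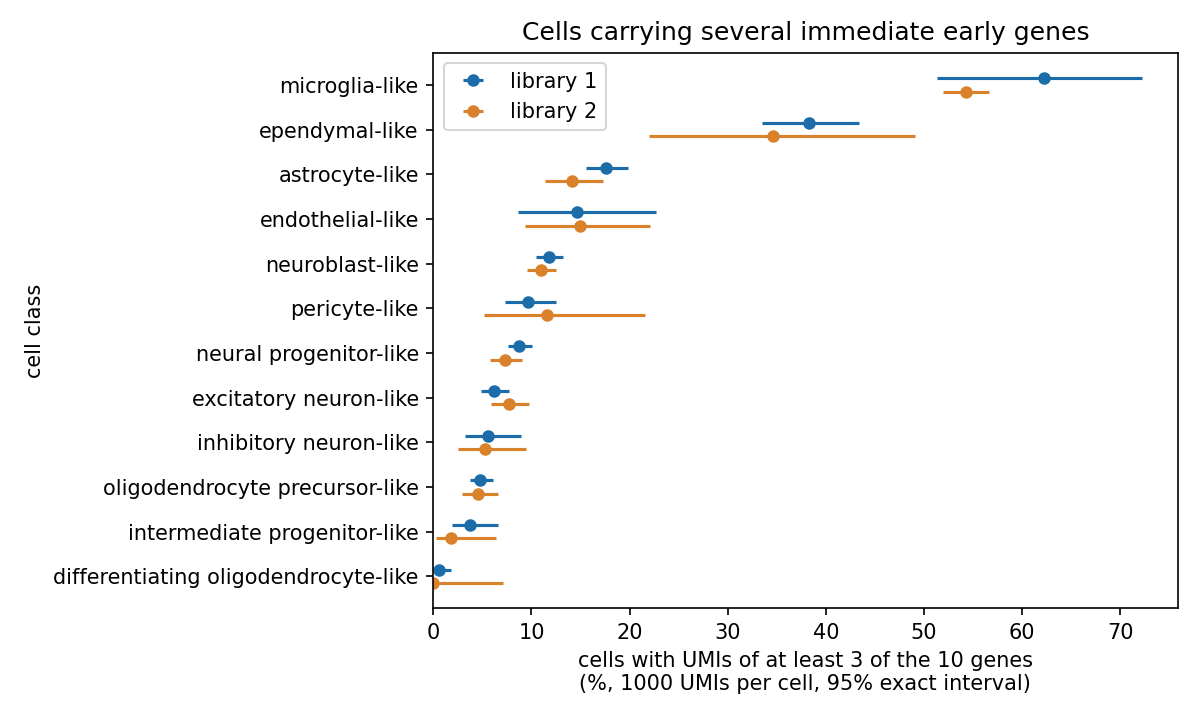
Share of cells with UMIs of at least 3 of the 10 genes after thinning to 1000 UMIs per cell (%), by class and library, with 95% exact intervals. Microglia-like cells sit at 62.2% and 54.3%, ependymal-like cells at 38.3% and 34.6%, and the other 10 tested classes under 18%.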

How the data were processed

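The values are counts of UMIs per gene and cell barcode, deposited by the authors without normalisation, per the file headers and the whole-number values. The submitters' processing notes name Cell Ranger 6.1.2 and mm10, and the libraries had 700 M raw reads per library on an MGISEQ-2000, per the labels' protocols. How overlapping genes were counted is not given in the sources used here.

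Quality limits were a minimum of 500 genes and a maximum of 10% mitochondrial UMIs per barcode (passed by 97.2% in library 1 and 76.7% in library 2). Scrublet in scanpy 1.11.5 marked 589 doublets in library 1 and 0 in library 2, where the highest 6% of scores (883) were then removed, a choice made after seeing the data. Leiden clustering at resolution 1 used 2000 variable genes, 30 components and 15 neighbours and left out the 10 members and the other lists. Clusters were named from marker lists by at least 3 markers at 2-fold and 20 CPM. The merging of 2 oligodendrocyte lists and the rules that left 4 clusters unnamed were chosen after seeing the clusters. The members and gene lists were chosen with earlier results of these data known.

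UMIs were summed by class and library (n = 2) and tested in edgeR 4.0.16 by quasi-likelihood (class plus library as a block, TMM, filterByExpr, two-sided, Benjamini-Hochberg over 13295 genes, 11 residual degrees of freedom), in R 4.3.3. Genes used for clustering or naming were not tested. The current estimate of the quasi-dispersion in edgeR was used after the earlier one gave infinite prior degrees of freedom, and the earlier one is an alternative. Classes of 1 library share a suspension, so the library is a block, although the library differences of different classes had a median correlation of 0.013 (66 pairs). All members were named, and in every other list the called genes with the largest change and at least 20 CPM, up to 3 per comparison. DESeq2 1.42.0 was an alternative. The fit was tested on simulated data. Other software was matplotlib 3.10.9, igraph 0.11.9, scikit-learn 1.9.0, scipy 1.17.1, pandas 2.3.3, numpy 2.4.6 and Python 3.11.15. Fewer cells expressing a gene and less RNA per cell cannot be told apart in summed counts.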

Additional observations from a re-analysis of the deposited data

Results flagged for a closer look

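Border macrophage-like cells, the macrophages of the brain's coverings and vessels, were named from all 8 of their markers but were too few in library 1 (45 cells, against 162 in library 2) to enter the tests. Their summed level of the 10 genes was 6509 CPM in library 1 and 5488 CPM in library 2, above the 5382 and 4269 CPM of microglia-like cells in each library, which was not tested. Fos was at 1137 and 1032 CPM and Dusp1 at 439 and 382 CPM in border macrophage-like cells, against 549 and 337 CPM and 96.7 and 103 CPM in microglia-like cells. Egr1 and Atf3 went the other way, with 150.04 and 223 CPM and 127 and 140.5 CPM in border macrophage-like cells, against 568 and 449 CPM and 368 and 386 CPM in microglia-like cells.

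A cluster led by Htr3a and Synpr, with Gad1, Gad2 and Sp8 among its leading genes, was given no class because its leading genes included more markers of another class than of its own. It held 1125 and 1451 cells and had a summed level of 2598 CPM in library 1 and 2191 CPM in library 2, above that of every neuronal class in the fit in both libraries. Jun was at 851 and 675 CPM and Jund at 1218 and 1069.7 CPM in this cluster, against 563 and 503 CPM and 952 and 930.3 CPM in neuroblast-like cells.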

How the results depend on the processing

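All 10 members were called higher in microglia-like cells in 12 of 13 alternatives, and 9 were with 50 cells per class and library, where Jund was at 0.93. Of the members' log2 fold changes under an alternative, 841 kept their call or their lack of one, 52 were no longer called and 12 were newly called. The remaining 5 turned in genes called in the main fit or in the alternative. Changes of sign in genes called in neither are counted among the 841. Of the counts of members, 156 stayed within 1.5 times and 26 did not. In pericyte-like cells the 2 lower calls became 0 with DESeq2, with doublets kept or with 50 cells, and 1 with no replicate block or with the earlier quasi-dispersion, and the 3 higher calls became 1 under stricter quality limits, at resolution 2 or with 50 cells. In astrocyte-like cells 2 members were higher under stricter limits and 1 was lower at resolution 0.5. In oligodendrocyte precursor-like cells 1 was higher under stricter limits and 3 were lower with 50 cells. In neuroblast-like cells 1 was higher with the size factors or the test of DESeq2 or at resolution 2, and 0 under stricter limits, at resolution 0.5 or with 50 cells; 5 were lower at resolution 0.5 and 1 with 50 cells. Against neuroblast-like cells 1 was lower in excitatory neuron-like cells under stricter limits or with 50 cells. Leaving out a library gave 4 to 6 higher and 1 to 2 lower members in endothelial-like, 1 to 3 and 0 to 2 in pericyte-like, and 1 to 3 and 2 to 3 in neuroblast-like cells, by fold alone since 1 library leaves no residual degrees of freedom, and the other counts did not change. The no replicate block setting changed no other count by over 1.5 times. In pericyte-like cells Atf3 turned to -0.90 under stricter limits and -2.44 at resolution 2, Fos to -1.05 at resolution 2 and Fosb to -0.57 with 50 cells, and in astrocyte-like cells Atf3 to -1.11 at resolution 0.5. The cause was not tested, except that 50 cells leave fewer UMIs and 6695 tested genes, and that stricter limits and other resolutions change which cells a class holds. With size factors all genes had a median of -0.11 in microglia-like cells (0.14 with TMM), and the test of DESeq2 called 2173 genes higher and 2510 lower there (2748 and 1632 with edgeR) and 1058 and 1825 in neuroblast-like cells (1364 and 1097). Shares of cells depended on depth. With 2000 UMIs, without thinning or at 5 genes, 35 of 36 means of the 2 libraries moved by more than the standard deviation between the libraries.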

Other observations

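Some cells outside the tested classes carried the genes at levels that differed between libraries or cell kinds. Cajal-Retzius cell-like cells, early-born neurons of the outermost cortex that secrete reelin, had 749 and 685 CPM of the 10 genes (37 and 95 cells), of which 519 and 508 CPM were Jund, and 0 UMIs of Fosb in both libraries. Neutrophil or monocyte-like cells had 6060.1 CPM in 12 cells of library 1 and 1583 CPM in 256 cells of library 2, the widest gap between libraries among the named classes. Nr4a1 was at 572 and 155 CPM in these cells, above its level in all 12 tested classes. Fibroblast-like cells had 1609 and 2020.1 CPM (44 and 8 cells), with Fos at 348 and 299 CPM. Erythroid-like cells, found in library 2 alone, had 644 CPM.

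In library 2, 1445 and 3431 barcodes fell into 2 clusters left without a name, of which library 1 held 3 and 23 barcodes. Microglia were the best match of both clusters, with 10 and 3 microglia markers at 2-fold and 20 CPM, but no marker was among their leading genes. Their median depths were 1064.5 and 949.5 UMIs, against 3634.5 UMIs in the larger microglia-like cluster. Their summed levels in library 2 were 2508 and 1985 CPM, with Atf3 at 160.9 and 88.6 CPM, higher than in all tested classes of that library other than microglia-like cells.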
